A study of Homo sapiens with 36 samples.

Results

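Translation factors are the proteins that recruit ribosomes to mRNAs, drive each step of peptide synthesis and release the finished chain. The mRNAs of 43 of them, chosen by gene symbol as the subunits of initiation factors eIF1 to eIF6, the elongation factors, the release and recycling factors and the poly(A)-binding protein PABPC1, were followed here among 26485 gene symbols. All 43 symbols were present in the count files, and 42 had enough counts to be tested; EIF3C did not. The cells were MDA-MB-231, an established human triple-negative breast cancer line, which the labels call a xenograft cell line. Every line carried a CRISPR interference (CRISPRi) construct and an overexpression (OE) construct. In control cells the CRISPRi targeted eGFP and the OE construct was the control one. UAU cells had CRISPRi against eGFP and overexpressed the isoleucine tRNA that the sample titles name Ile TAT, whose anticodon is UAU in RNA letters. GAUi cells had CRISPRi against the isoleucine tRNA named Ile GAT (anticodon GAU) with the control OE construct, and isoswitch cells carried both changes. All 4 lines were treated with cycloheximide, which stalls elongating ribosomes, at 100 µg/mL for 5 minutes before freezing. Each line gave total RNA, RNA of monosomes with the lightest polysome peak (the low fraction) and RNA of mRNAs with more than 2 ribosomes (the high fraction). With 3 replicates, lettered A to C, that made 36 libraries in 12 groups. Nothing in the labels ties a letter to its own culture or says that a line was 1 clone, so the spread behind each p-value is that of these samples and may be technical. The targets were tRNAs, which libraries of polyadenylated RNA do not measure, so no library here checks the tRNA levels.

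An mRNA is translated in steps that these factors divide among themselves. The cap-binding protein eIF4E, the scaffold eIF4G and the helicase eIF4A open the 5′ end of the mRNA, and eIF3, a large complex of subunits named by letter, holds the small ribosomal subunit to it. eIF2 brings the initiator tRNA as a GTP-bound complex and must be recharged by the exchange factor eIF2B, and this recharging is the step that stress kinases block. eEF1A delivers each aminoacyl-tRNA to the ribosome, isoleucyl-tRNA included, and eEF2 moves the ribosome along the mRNA. Several of these mRNAs are themselves under translational control. Those of the elongation factors, of PABPC1 and of some initiation factors belong to the TOP (5′ terminal oligopyrimidine) class, whose mRNAs begin with a C followed by an unbroken run of pyrimidines (C or T) and leave polysomes when growth signalling through mTOR is low.

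Library totals ran from 5192464 to 8974001 counts. The 43 genes took between 1.83% and 1.91% of all counts in total RNA, between 1.97% and 2.66% in the low fraction and between 1.24% and 1.51% in the high fraction. Levels are given in CPM, the depth-scaled count (here with TMM scaling over all 36 libraries), as mean ± SD of 3 libraries. Because reads come from the 3′ ends of mRNAs and each library is scaled to its own total, a difference is one of share within a fraction, and fewer cells and less of an mRNA per cell cannot be told apart. Expressed marker genes of the line (VIM, CD44, MSN, ANXA1, CAV1 and AXL) summed to 5168 to 5485 CPM in control total RNA. The sums there were 41.3 to 46.8 CPM for epithelial and hormone receptor genes that the line lacks or holds low, 1.77 to 2.43 CPM for fibroblast markers, 4.63 to 8.14 CPM for leukocyte markers and 3.67 to 5.00 CPM for endothelial markers. Of the defining genes, 2 fibroblast, 3 leukocyte and 2 endothelial ones had no count in any control total RNA library. Some libraries stood apart from the others of their group. The chi-square per degree of freedom between total RNA libraries of GAUi cells was 11.4 to 33.3, highest for the pairs with replicate A, and was 18.7 to 21.5 for pairs with control replicate B of the low fraction against 3.49 for the third pair. In the high fraction of UAU cells it was 6.8 and 12 for the pairs with replicate C against 2.98 for A and B. Pairs with replicate A had 9.34 and 12.6 against 4.35 in the low fraction of UAU cells, and 8.16 and 5.22 against 3.01 in the high fraction of isoswitch cells. Some members have near-identical copies elsewhere in the genome, and their counts are uncertain. EIF3C and its copy EIF3CL had the same count in all 36 libraries, between 0 and 7. EEF1A1, whose mRNA is abundant in most cells, had 203 ± 15 CPM in control total RNA, and RefSeq lists 50 pseudogenes of it, 13 of PABPC1, 13 of EIF4A1 and 9 of EIF4B.

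The start sites of the members are shown first because the TOP class is defined by them. RefSeq start sequences (GRCh38.p14) were matched for 35 of the 43 members, and each sequence below runs from 10 bases before to 15 bases from an annotated transcript start, read along the gene's strand. Capitals mark a C at the first transcribed base with the C or T bases that follow it, printed where at least 4 pyrimidines follow the C. The 10 members with such a start were these.

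EEF1A1, chr6:73521018-73521042, minus strand: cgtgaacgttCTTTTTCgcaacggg
EEF2, chr19:3985449-3985473, minus strand: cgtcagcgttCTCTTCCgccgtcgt
EEF1B2, chr2:206159885-206159909, plus strand: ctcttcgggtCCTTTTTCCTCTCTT
EIF4A2, chr3:186783567-186783591, plus strand: gcgccgctgtCTTTTCagtcgggcg
EIF4B, chr12:53006446-53006470, plus strand: tcatccgggtCTTTTgcgttctctt
EIF2S3, chrX:24054946-24054970, plus strand: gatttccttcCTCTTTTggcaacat
EIF3D, chr22:36529152-36529176, minus strand: cgcatgtttcCTCTTTTCCTggttt
EIF3F, chr11:7987327-7987351, plus strand: cttccgcctcCTTCTTTCTCgacaa
EIF3K, chr19:38619178-38619202, plus strand: tttccaccacCTCTTCCTgttcccg
EIF3M, chr11:32583821-32583845, plus strand: gcccagttccCTTTTCCggtcggcg

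The pattern searched was a C at the first base followed by at least 4 bases that are C or T, on the sense strand only, in any of a gene's annotated starts. It was found in 28.6% of the members with a sequence (10 of 35) and in 6.24% of protein-coding genes (988 of 15843), and in 4.54% of the start sites of coding genes. For contrast, the starts of members that the results below turn on and that lacked the pattern are given in lower case.

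EIF3B, chr7:2354817-2354841, plus strand: tcgcacgcacatggctgggctgtag
EIF2S1, chr14:67360318-67360342, plus strand: gaggttccgcatgcgcggtggagtg
EIF3I, chr1:32222397-32222421, plus strand: ttccggtcttactcacgttgcggcc
EIF4H, chr7:74174346-74174370, plus strand: ctcgctcaccctggttcctctcgga
ABCE1, chr4:145098301-145098325, plus strand: gcggctgggcaccgccattttggcc
EEF1G, chr11:62573877-62573901, minus strand: cgggcggcttactttgcggcagcgc

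EEF1G is on the list of members known from the literature as TOP mRNAs, and its annotated start does not hold these letters. Of the 6 members on that list with a sequence, 5 had the pattern. A match describes the annotated start and is not a measured cap site. EEF1B2 has another annotated start, at the first base of the gene (chr2:206159609), without the pattern. For EIF3B the only start searched was at chr7:2354827, downstream of the first base of the gene (chr7:2354086). The members EEF1D, EIF2S2, EIF3A, EIF3E, EIF3G, EIF3H, EIF3L and PABPC1 are named only.

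In control cells, the comparison of the high with the low fraction shows which factor mRNAs were carried by heavier polysomes. The subunits of eIF2, eIF2B and most of eIF3 lay towards the high fraction, while PABPC1, EEF1A1, EEF2 and EIF4B lay towards the low one. The elongation factors were split, since EEF1B2 (0.40) and EEF1D (0.44), subunits of the exchange complex of eEF1A, were higher in the high fraction, EEF1D with overlapping groups and lost in 3 of 12 alternatives. Of 42 members tested, 26 were higher and 12 lower in the high fraction, with a median log2 fold change of 0.46 against -0.01 over all genes. This comparison called 66% of all genes tested, 32.8% higher and 33.2% lower, so most genes differ between fractions, and 90.5% of members did. The plot of control fractions shows each member.

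**Figure D1:**
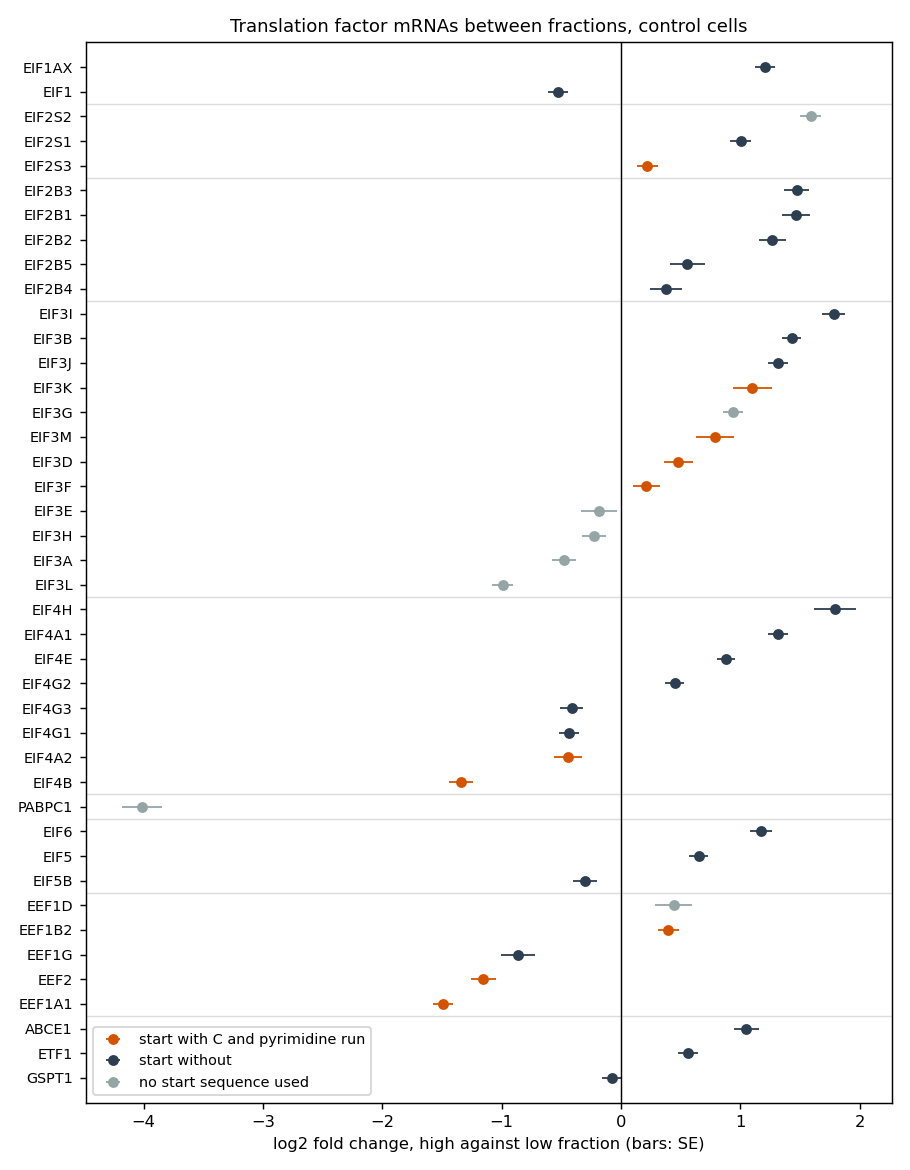
Log2 fold change of each tested translation factor between the high and the low fraction of control cells (horizontal axis, points with SE), grouped by complex, with colour for the start site class. PABPC1 stands far to the left at -4.01, and EIF4H and EIF3I are farthest to the right at 1.79 and 1.78.

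PABPC1, which coats the poly(A) tail and joins it to eIF4G, was the member with the largest difference. Its level was 14030, 8847 and 15000 CPM in low-fraction replicates A, B and C and 904, 804 and 752 CPM in the high fraction. Replicate B of the low fraction was the lowest of its group, yet every low-fraction library was far above every high-fraction one. The log2 fold change was -4.01 (SE 0.17, adjusted p = 4.25e-11, edgeR quasi-likelihood test over all genes). Of the other members that were lower, EEF1A1, the carrier of aminoacyl-tRNA, had the largest difference, with 260, 271 and 262 CPM in the low and 106, 99 and 90.4 CPM in the high fraction, and the groups did not overlap (log2 fold change -1.49, SE 0.09, adjusted p = 1.07e-09). EIF4B, a cofactor of the helicase eIF4A, fell from 104 ± 12 to 42.9 ± 0.84 CPM (-1.34, SE 0.10), and EEF2, the translocase, from 602 ± 69 to 284 ± 38 CPM (-1.15, SE 0.10). EIF3L, a subunit of eIF3, and EEF1G, part of the exchange complex of eEF1A, were lower by smaller amounts (-0.99 and -0.86). The others that passed downward were EIF1, which guards start codon choice (-0.53), EIF3A (-0.48), EIF4A2 (-0.44), EIF4G1 (-0.44), EIF4G3 (-0.41) and the joining factor EIF5B (-0.30).

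At the other end were subunits whose mRNAs are mostly not of the TOP class. EIF3I, a subunit at the edge of eIF3, had 59, 51.3 and 52.5 CPM in the low and 186, 199 and 202 CPM in the high fraction. The lowest high-fraction library was above the highest low-fraction one, and the log2 fold change was 1.78 (SE 0.10, adjusted p = 4.55e-10). EIF2S2, the beta subunit of eIF2, rose from 407 ± 40 to 1283 ± 41 CPM (1.59, SE 0.09), EIF3B, the scaffold subunit of eIF3, from 67.3 ± 2.5 to 190 ± 5.9 CPM (1.43, SE 0.08), and EIF3J from 284 ± 27 to 741 ± 14 CPM (1.31, SE 0.08). EIF4H, like EIF4B a helper of eIF4A, had the highest value (1.79, SE 0.17), at 16.2 ± 5.5 CPM in the low fraction. All 3 eIF2 subunits and all 5 eIF2B subunits were higher, with medians of 1.00 and 1.27. Of 12 eIF3 subunits tested, 7 were higher and 2 lower. EIF2S3 (0.22) had the weakest of these calls and lost it in 9 of 12 alternatives. EIF3E (-0.19), EIF3F (0.21) and EIF3H (-0.22) did not pass. EIF1AX, which works with EIF1 in scanning (1.21), EIF6, which keeps ribosomal subunits apart (1.17), and EIF5, the GTPase activator of eIF2 (0.65), were higher. The eIF4 group split evenly, with EIF4H, EIF4A1 (1.32), EIF4E (0.88) and EIF4G2 (0.45) higher and 4 lower. Among the termination and recycling factors ABCE1, which splits ribosomes after termination, was higher (1.05) and so was the release factor ETF1 (0.56), while GSPT1 had a log2 fold change of -0.08.

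Of the 11 members on the TOP list, 2 were higher and 6 lower (median -0.48), and of the 31 other members tested, 24 were higher and 6 lower (median 0.88). Sorted instead by the start pattern, 5 of 10 with it were higher and 4 lower (median 0.22), and of 24 without it 18 were higher and 5 lower (median 0.94). The 8 members with no sequence gave 3 higher and 3 lower. The paralogs EIF4A1 and EIF4A2, both helicases of the cap complex, differed in start and in direction, and a link between these was not tested. EIF4A2, with CTTTTC at its start, was lower in the high fraction, though its groups overlapped. EIF4A1, without the pattern, was higher. EIF3K and EIF3M had the pattern and were higher (1.10 and 0.79), so the start did not sort every member. Without 1 of the 6 libraries the number of members called was 35 to 39.

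Overexpression of the tRNA with the UAU anticodon was followed by lower levels of many factor mRNAs in the high fraction. Of 42 members, 21 were lower and 3 higher than in control, with a median log2 fold change of -0.26 against -0.00 over all genes tested. The background in this comparison was 28.7% of genes called, 13.1% higher and 15.5% lower. The lower members lay in eIF2, eIF2B, eIF3, elongation and termination, and the cap-binding group was mostly not among them. In the same libraries, 5 of 12 long non-coding RNAs that lie in the low fraction of control cells were higher and none was lower (median 0.21). Their sum was 774 to 952 CPM in UAU and 678 to 726 CPM in control, and its part in the members' result was not tested. That list was chosen with earlier results of these data known, and its place in control cells rests on the same high-fraction control libraries.

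EIF3B had 186, 188 and 197 CPM in control replicates A, B and C and 103, 112 and 123 CPM in UAU cells. The highest UAU library was far below the lowest control library (log2 fold change -0.73, SE 0.10, adjusted p = 6.70e-06). EIF2S1, the alpha subunit of eIF2 and the site that stress kinases phosphorylate, had 125, 129 and 121 CPM in control and 69.2, 80.8 and 85.4 CPM in UAU cells, also without overlap (-0.65, SE 0.09, adjusted p = 1.45e-05). EIF3E, another subunit of eIF3, had 97.7, 95.8 and 67.2 CPM against 43.2, 58.4 and 47.9 CPM. Control replicate C was the lowest of its group and still above every UAU library (-0.80, SE 0.12, adjusted p = 4.12e-05). EIF3I fell from 196 ± 8.8 to 131 ± 14 CPM (-0.56, SE 0.09, adjusted p = 4.85e-05).

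**Figure D2:**
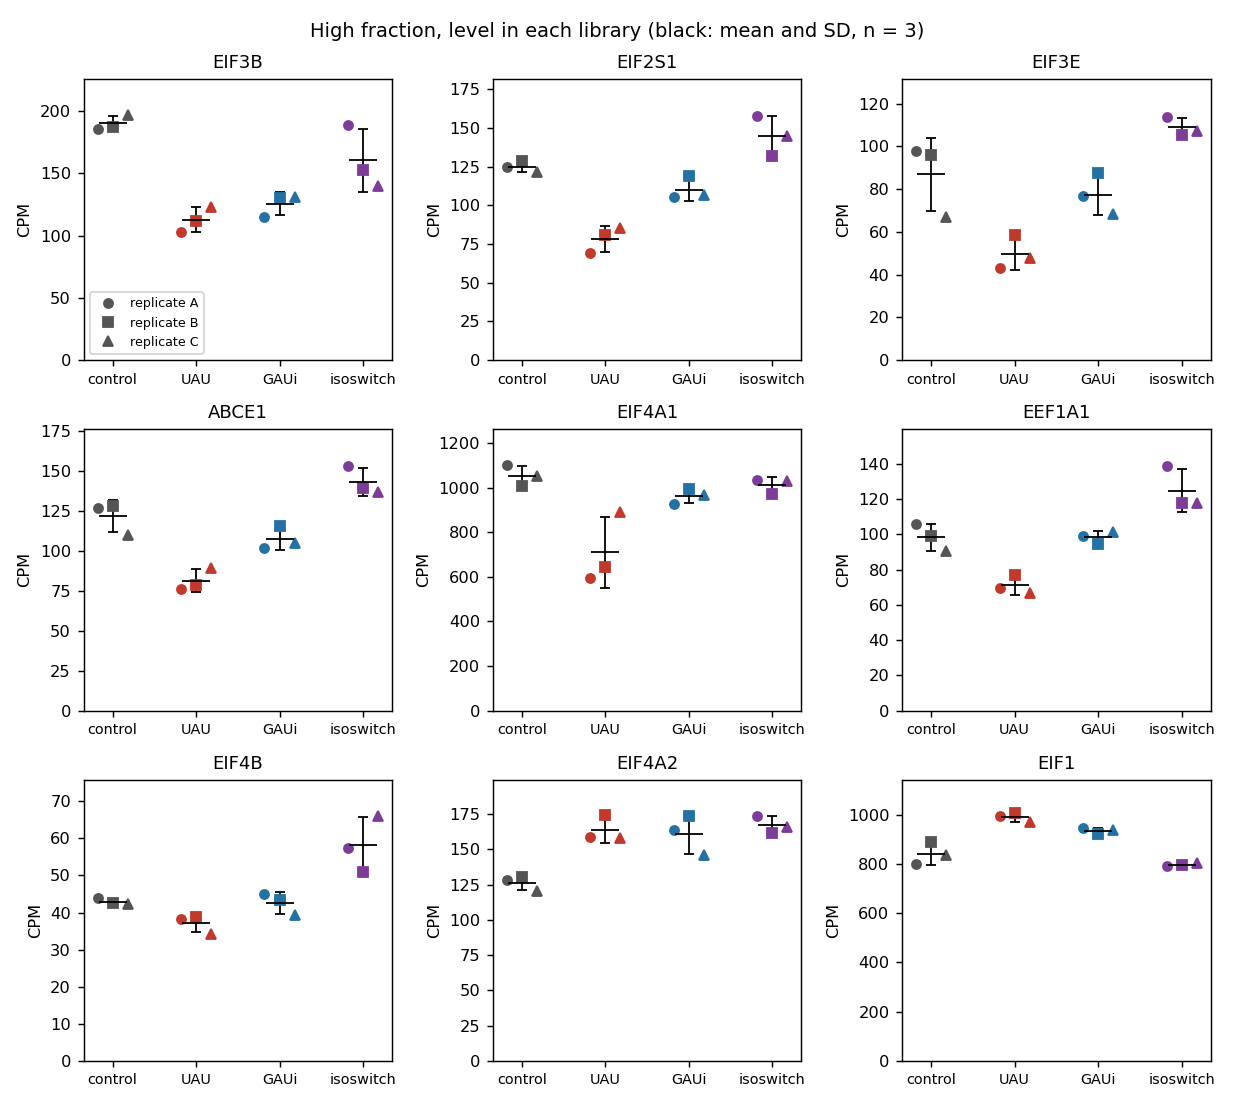
Level in the high fraction (vertical axis, CPM from 0) of 9 translation factors in each library of the 4 lines, with a symbol for each replicate and the mean and SD in black. EIF3B, EIF2S1, EIF3E and ABCE1 are lowest in UAU cells, while EIF4A2 is above control in all 3 other lines.

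By complex, 8 of 12 eIF3 subunits tested fell: besides those above, EIF3D (-0.57), EIF3H (-0.55), EIF3L (-0.54), EIF3M (-0.46) and EIF3F (-0.39, with overlapping groups). EIF3A, the largest subunit, did not pass (-0.04), nor did EIF3K (0.00), EIF3J (-0.07) or EIF3G (-0.20). Of the eIF2 subunits, EIF2S1 and EIF2S3 (-0.57) fell, and EIF2S2 had -0.00 with 1283 ± 41 CPM in control and 1262 ± 149 CPM in UAU cells. Of the eIF2B subunits, EIF2B2 (-0.70), EIF2B3 (-0.63), EIF2B4 (-0.50) and EIF2B5 (-0.30, with overlapping groups) fell and EIF2B1 did not pass (0.08). All 3 termination and recycling factors fell: ABCE1 (-0.56), GSPT1 (-0.46) and ETF1 (-0.38). Among elongation factors EEF1G (-0.48), EEF1A1 (-0.46) and EEF2 (-0.27) fell, and EEF1B2 (-0.12) and EEF1D (-0.24) did not pass.

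The eIF4 group moved differently. EIF4A1, the main eIF4A helicase of dividing cells, had 1100, 1008 and 1052 CPM in control and 596, 645 and 893 CPM in UAU cells. UAU replicate C lay well above the others of its group and below every control library (-0.55, SE 0.10, adjusted p = 0.000229). Its paralog EIF4A2 moved the other way, with 128, 130 and 120 CPM in control and 159, 174 and 158 CPM in UAU cells, with no overlap (0.39, SE 0.08, adjusted p = 0.00103). EIF1 (0.26, SE 0.07) and EIF4G2, a relative of eIF4G that does not bind eIF4E (0.20, SE 0.07), were the other members that rose. EIF4E (0.09), EIF4G1 (-0.01), EIF4G3 (-0.11), EIF4B (-0.20) and EIF4H (0.11) did not pass. PABPC1 had 820 ± 77 CPM in control and 828 ± 142 CPM in UAU cells. EIF5 (-0.10), EIF5B (-0.22) and EIF6 (0.05) did not pass either.

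The lower members did not share a start. With the start pattern, 6 of 10 fell and 1 rose, without it 12 of 24 fell and 2 rose, and of the 8 with no sequence 3 fell. The TOP list gave 6 lower of 11. Leaving out 1 library at a time gave 20 to 26 called members, the most without UAU replicate C, and 19 of the 24 calls held in every alternative run. EIF4G2, EIF2B5, EIF3F, EEF2 and EIF1 were lost in at least 1 of them, and EIF4G2 was lost when libraries were scaled by their totals alone.

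**Figure D3:**
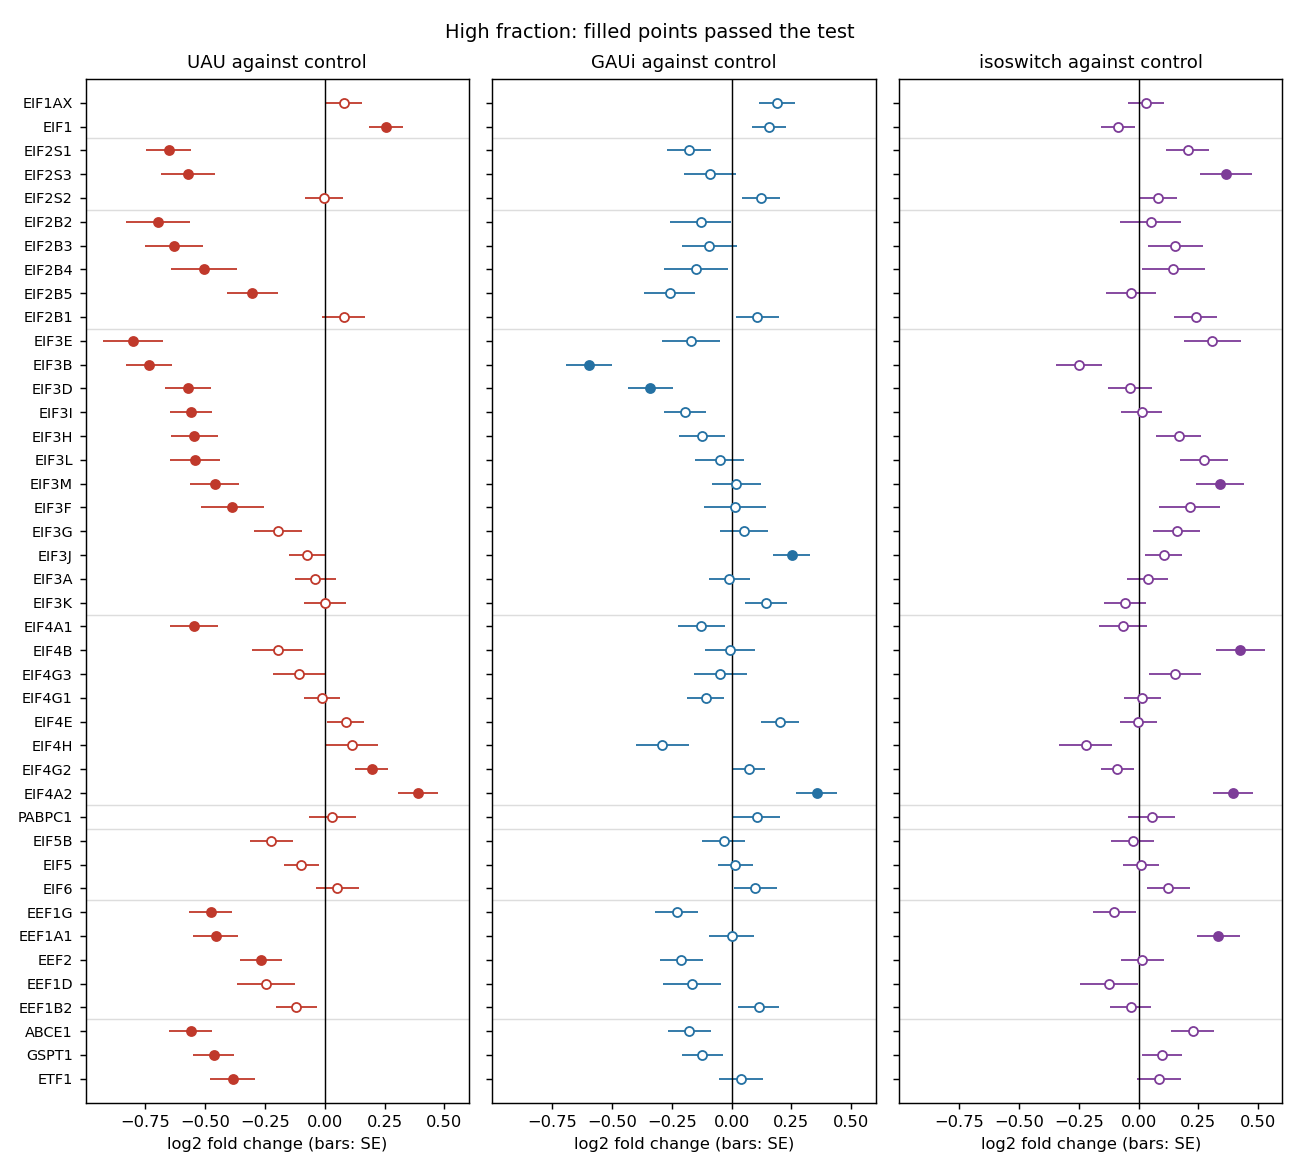
Log2 fold change in the high fraction against control (horizontal axes, points with SE) of each tested member in UAU, GAUi and isoswitch cells, with filled points for those that passed the test. Most filled points of UAU cells lie left of 0, and the 5 filled points of isoswitch cells lie right of it.

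Total RNA of UAU cells showed little of this. EEF1D, the exchange factor subunit that recharges eEF1A, had 624, 676 and 680 CPM in control and 479, 506 and 432 CPM in UAU cells, without overlap. It was lower (-0.45, SE 0.07, adjusted p = 0.00427) and was the only member called, against a background of 0.914% of genes, 0.348% higher and 0.566% lower. DESeq2 called 3 members, and the edgeR test with just these 2 groups in the model called 5. In the low fraction the edgeR test called 0 members (0.691% of all genes, 0.329% higher and 0.362% lower). There 1 member had an unadjusted p under 0.05, and DESeq2 called 0.

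The high-to-total ratio asks whether a factor's level in the high fraction changed beyond its change in total RNA, by subtracting one difference from the other over 24 libraries. In UAU cells 14 members were lower and 0 higher, against 7.32% of all genes called, 3.57% higher and 3.75% lower. The members' median was -0.18. EIF2S1 had 158, 156 and 167 CPM in control total RNA and 152, 148 and 152 CPM in that of UAU cells, a small difference beside that of the high fraction given above. Its ratio fell by 0.56 (log2, SE 0.12, adjusted p = 0.005). EIF3B (-0.62), EIF3M (-0.59), ABCE1 (-0.63), EIF3E (-0.72), EIF2B3 (-0.61), EIF3H (-0.53), EIF2B2 (-0.66), GSPT1 (-0.48), EIF2S3 (-0.55), EIF3I (-0.47), EEF1G (-0.41), EIF2B4 (-0.60) and EIF3L (-0.47) were the others. The same 12 non-coding RNAs had 5 members with a higher ratio and 0 with a lower one (median 0.40). Without 1 library the count of members ran from 6 (without UAU replicate A or B of the high fraction) to 18 (without UAU replicate C). It was 8 without high-fraction control replicate A or total RNA control replicate B, and 9 without high-fraction control replicate B or total RNA UAU replicate C. With the low fraction in place of total RNA 10 members were called, and the calls of EIF2B2, EIF2B4, EIF3I, EIF3L, EIF3M (adjusted p = 0.271) and EEF1G ended. EIF2S1, EIF3B and ABCE1 passed in every alternative.

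**Figure D4:**
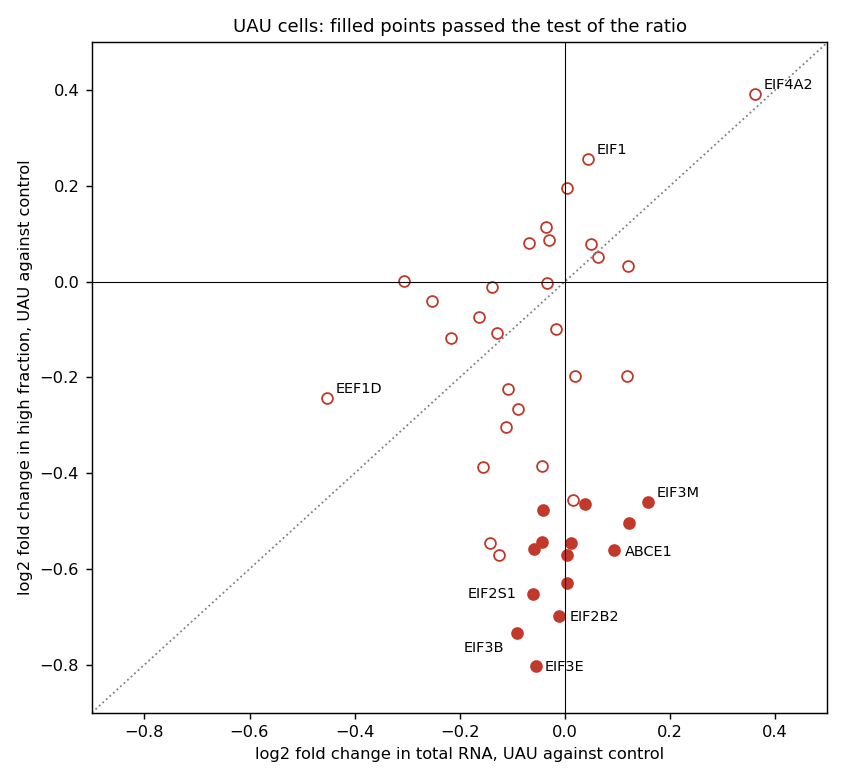
Log2 fold change of each tested member in UAU against control cells, in total RNA (horizontal axis) and in the high fraction (vertical axis), with filled points where the high-to-total ratio passed the test and a dotted line of equal change. The filled points lie below the line, between -0.09 and 0.16 in total RNA and between -0.46 and -0.80 in the high fraction.

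Interference against the tRNA with the GAU anticodon was followed by changes of fewer members. The comparisons of the 3 lines with control share the control libraries and are not independent of each other. In total RNA 6 members were higher and 1 lower, against 10.1% of all genes called, 4.38% higher and 5.72% lower. EIF4A2 had 143, 133 and 139 CPM in control and 221, 198 and 166 CPM in GAUi cells, with every GAUi library above every control one (0.50, SE 0.10, adjusted p = 0.0026). EIF3M (0.44), EIF2S3 (0.41), EIF3E (0.41), EIF5B (0.33) and EEF2 (0.25) were also higher. EIF3B had 191, 207 and 196 CPM in control and 165, 141 and 157 CPM in GAUi cells, without overlap (-0.36, SE 0.08, adjusted p = 0.0097). Of the 6 higher members, 4 had the start pattern, and 4 of 10 with the pattern rose against 1 of 24 without it. The share over all genes with the pattern was not computed, and the split was not tested. On the TOP list 2 of 11 rose, and of the 31 other members tested 4 rose and 1 fell.

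Replicate A of GAUi total RNA differed from B and C in several members. EEF1A1 was at 71.6, 244 and 224 CPM in replicates A, B and C, and EIF4B at 60.7, 129 and 112 CPM, where control was 203 ± 15 and 91.6 ± 4.4 CPM. Replicate A was far below the others and below control for both. Without it, 15 members passed, 13 higher and 2 lower. Without control replicate A, B or C the numbers were 4, 2 and 4, and the test with just these 2 groups in the model called 1. Of the 7 calls only that of EIF4A2 held in every alternative run, and that of EEF2 was lost in 7 of 12.

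**Figure D5:**
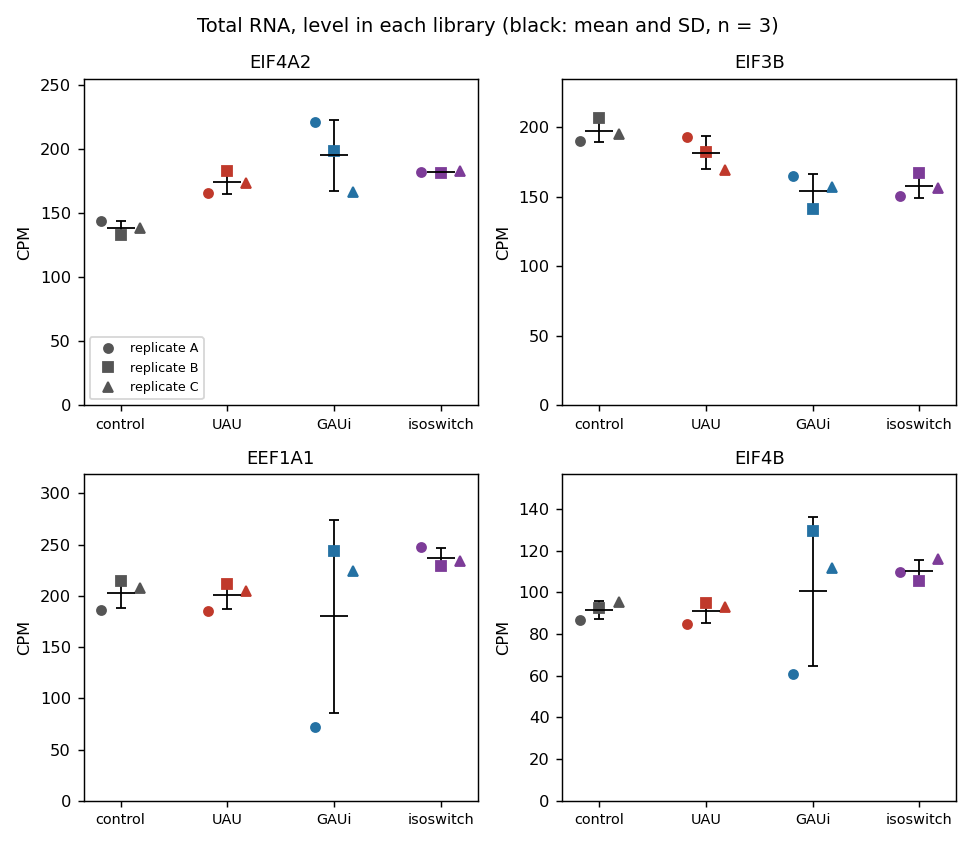
Level in total RNA (vertical axis, CPM from 0) of EIF4A2, EIF3B, EEF1A1 and EIF4B in each library of the 4 lines, with a symbol for each replicate and the mean and SD in black. GAUi replicate A is at 71.6 CPM for EEF1A1 and 60.7 CPM for EIF4B, below all other libraries, and EIF4A2 is above control in each of the other lines.

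In the high fraction of GAUi cells 2 members were higher and 2 lower, against 10.1% of genes called, 4.66% higher and 5.48% lower, a share of members near the background. EIF3B had 115, 130 and 131 CPM where control had 186 to 197, with no overlap (-0.60, SE 0.10, adjusted p = 0.000188), and EIF3D fell from 191 ± 8.6 to 150 ± 10 CPM (-0.34, SE 0.09). EIF4A2 rose from 126 ± 5.2 to 161 ± 14 CPM (0.35, SE 0.08, adjusted p = 0.00739) and EIF3J from 741 ± 14 to 880 ± 27 CPM (0.25, SE 0.08). Only the EIF3B call held in every alternative, and scaling by library totals alone gave 1 higher and 7 lower. Leaving out control replicate A or GAUi replicate A left 2 members, and leaving out GAUi replicate B left 1. Of the 12 light-fraction non-coding RNAs, 3 were higher and 0 lower.

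In the low fraction of GAUi cells the edgeR test called 0 members (3.4% of all genes, 1.27% higher and 2.13% lower), 7 had an unadjusted p under 0.05, and DESeq2 called 2. Without control replicate B of the low fraction the edgeR test called 4. The ratio called 0 members too (0.718% of genes, 0.223% higher and 0.494% lower), with 12 at an unadjusted p under 0.05 and 2 called by DESeq2. Members' ratios were below 0 for 29 of 42, with a median of -0.11 against -0.01 over all genes tested. The members share libraries and scaling, so this count of directions is not a test. Without GAUi total RNA replicate C the ratio called 3 members, without replicate A 2, without replicate B 1, and without high-fraction control replicate C 1.

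Isoswitch cells, with both tRNA changes, did not show the fall of UAU cells. In the high fraction 5 members were higher than in control and 0 lower, against 11% of genes called, 3.67% higher and 7.36% lower. EIF4A2 had 174, 162 and 166 CPM where control had 120 to 130, with no overlap (0.40, SE 0.08, adjusted p = 0.00224). EIF4B had 43.9, 42.6 and 42.3 CPM in control and 57.4, 50.9 and 66.2 CPM in isoswitch cells, again without overlap (0.43, SE 0.10, adjusted p = 0.00722). EEF1A1 rose from 98.4 ± 7.7 to 125 ± 12 CPM (0.33, SE 0.09), EIF2S3 from 73 ± 3.8 to 94.9 ± 6.4 CPM (0.37, SE 0.11) and EIF3M from 166 ± 21 to 211 ± 18 CPM (0.34, SE 0.10). The share of members called was 11.9%, near the background of 11%. All 5 have the pyrimidine start printed above. With that start 5 of 10 members rose and without it 0 of 24, with medians of 0.27 and 0.02. This split was not tested, and the share over all genes with such a start was not computed. On the TOP list 2 of 11 rose (median 0.05), and of the 31 other members tested 3 rose (median 0.08). The light-fraction non-coding RNAs went down in this comparison, 5 of 12 lower and 0 higher (median -0.37), and their part was not tested. Only the EIF4A2 call held in every alternative. Leaving out control replicate C or isoswitch replicate C left 2 members, and leaving out isoswitch replicate A left 3.

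In total RNA of isoswitch cells EIF4A2 was higher (0.42, SE 0.10, adjusted p = 0.0163) and EIF3B lower (-0.30, SE 0.08, adjusted p = 0.0448), against 4.05% of genes called, 1.29% higher and 2.76% lower. EIF4A2 was at 182, 181 and 182 CPM there, above the 133 to 143 CPM of control. Neither call passed without any 1 of the 6 libraries, and the test with just these 2 groups in the model called 11 members. In the low fraction only EIF3J was called, with 260, 313 and 280 CPM in control and 430.5, 338 and 387 CPM in isoswitch cells (0.42, SE 0.10, adjusted p = 0.0363). All isoswitch libraries were above all control ones, and the background was 2.58% of genes, 0.964% higher and 1.62% lower. It was lost without control replicate A or C or isoswitch replicate A or C, and 3 members passed without control replicate B. The ratio called 0 members and 0% of all genes (0% higher and 0% lower). No member had an unadjusted p under 0.05 there, and DESeq2 also called 0. Of 42 ratios 36 were above 0, with a median of 0.10 against 0.01 over all genes tested, and here too the count of directions is not a test.

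Isoswitch and UAU cells both overexpress the tRNA with the UAU anticodon and differ in the interference against GAU. Their high fractions differed in 26 members, 23 higher and 3 lower in isoswitch cells, against 41.6% of genes called, 20.4% higher and 21.3% lower. The members' median was 0.32. EIF3E had 114, 105 and 107 CPM in isoswitch cells where UAU cells had 43.2 to 58.4 (1.11, SE 0.12, adjusted p = 1.15e-07). EIF2S1 had 158, 132 and 145 CPM against 69.2 to 85.4 (0.86, SE 0.09, adjusted p = 7.53e-08), and for both genes the groups were far apart. ABCE1 rose from 81.4 ± 7.2 to 143 ± 8.8 CPM (0.79, SE 0.09), EEF1A1 from 71.2 ± 5.4 to 125 ± 12 CPM (0.79, SE 0.09) and EIF2S3 from 48.4 ± 9.3 to 94.9 ± 6.4 CPM (0.94, SE 0.11). By complex 9 of 12 eIF3, 4 of 5 eIF2B, 3 of 5 elongation and all 3 termination and recycling members were higher. EIF1 (-0.34), EIF4G2 (-0.29) and EIF4H (-0.34) were lower. Of 12 light-fraction non-coding RNAs 9 were lower (median -0.74). In this comparison 22 of the 26 calls held in every alternative. EIF2B5 was lost in 7 of 12 alternatives, EIF4H in 3, EIF3G in 2 and EEF2 in 2.

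Whether the effect of UAU overexpression depends on the interference was tested as the difference between its effect in GAUi cells and its effect in eGFP cells, in the high fraction. This comparison uses the same 12 libraries as those above, control included, and was added after the values were seen. It called 22 members higher and 4 lower, against 35.7% of genes, 18.1% higher and 17.6% lower, with a members' median of 0.46. For EIF3E the difference of effects was 1.28 (log2, SE 0.17, adjusted p = 3.15e-06), for EIF3B 1.08 (SE 0.14, adjusted p = 1.55e-06) and for EIF2S1 1.03 (SE 0.13, adjusted p = 1.32e-06). EIF3B shows what this means in levels: UAU overexpression went with a change from 190 ± 5.9 to 113 ± 10 CPM in eGFP cells and from 126 ± 9.2 to 161 ± 25 CPM in GAUi cells. EIF1 (-0.50), EIF4G2 (-0.36), EIF4A2 (-0.35) and EIF4E (-0.29) were the lower ones. Of the 26 calls, 22 held in all 17 alternatives. EIF4E was lost in 11 of them (adjusted p up to 0.436), EIF4A2 in 6, EIF3F in 3 and EIF4G2 in 1. With the start pattern 7 of 10 were higher and 1 lower, without it 12 of 24 higher and 3 lower. Of the 12 light-fraction non-coding RNAs 9 were lower (median -1.04). Scaling by library totals alone gave 28 higher and 1 lower, and shifted the median of all genes in this comparison from -0.01 to 0.17.

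EIF3B, EIF4A2, EIF2S3 and EIF3M each passed in total RNA or the high fraction of all 3 altered lines. The lines share the control libraries, and the share of all genes that do so was not computed. The EIF3B call in isoswitch total RNA was lost in 7 of 12 alternatives. In the isoswitch high fraction that of EIF2S3 was lost in 4 and that of EIF3M in 3. EIF2S3 and EIF3M were lower in the UAU high fraction and higher in GAUi total RNA and the isoswitch high fraction. The level of EIF3B in the high fraction ran from 113 ± 10 CPM in UAU and 126 ± 9.2 in GAUi to 161 ± 25 in isoswitch and 190 ± 5.9 in control cells. UAU and GAUi overlapped, as did isoswitch and control, whose difference did not pass (-0.25, adjusted p = 0.0936). EIF4A2 stood at 126 ± 5.2 CPM in control and at 161 to 167 CPM in the other lines, whose libraries overlapped. In total RNA of UAU cells EIF4A2 did not pass (0.36, SE 0.10, adjusted p = 0.082), although every UAU library was above every control one. Its low-fraction differences did not pass in any line (0.16 to 0.27).

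Other genes of the pathway, counted from lists outside the 43 members, moved in both directions. In the UAU high fraction 3 of 15 tested other factors rose, among them EEF1E1 (0.44), and 4 fell. Those that fell included EIF2A, an alternative carrier of initiator tRNA (-0.75), and HBS1L, a rescue factor for stalled ribosomes (-0.41). The 7 called were 46.7% of these other factors, against 28.7% of all genes. Of 27 regulators 4 rose and 4 fell (29.6%, near the background), with the eIF4E inhibitor EIF4EBP1 higher (0.52) and the kinase EIF2AK2 lower (-0.46). Of 11 targets of the integrated stress response 2 rose and 1 fell (27.3%, also near it). In the high fraction of isoswitch cells, where 11% of all genes were called, the regulators had 0 higher and 2 lower (7.41%, below the background). The stress targets there had 1 higher and 2 lower (27.3% of 11 genes), among them PSAT1, of serine synthesis (0.63), and the stress transcription factor ATF4 (-0.48). The heme-regulated eIF2 kinase EIF2AK1 was lower in total RNA of GAUi (-0.50, adjusted p = 0.000824) and isoswitch cells (-0.42, adjusted p = 0.00524), and in both of their fractions. EEF1A2, the second eEF1A gene, was lower there too (-0.73 and -1.04 in total RNA), and also in the high fraction of UAU cells (-0.57). In GAUi total RNA 18.5% of regulators and 12.5% of other factors were called, against 10.1% of all genes. In isoswitch total RNA these shares were 3.7% and 6.25%, against 4.05%.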

How the data were processed

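The authors deposited raw counts per gene symbol, 1 file for each of 36 libraries made with the Lexogen QuantSeq 3′ kit, per the labels' protocols. STAR, featureCounts, DESeq2 and the build hg38 are named in the submitters' processing notes. Versions, annotation and strand setting were not given in the sources used here. The 43 members and all gene lists were chosen with earlier results of these data known, and every member may be named. Other genes of the pathway are named as examples of those called, and genes with a smaller p were sometimes left out. Counts were tested with the quasi-likelihood test of edgeR 4.0.16 (R 4.3.3) after filterByExpr and TMM scaling, with Benjamini-Hochberg adjustment over all genes. Genes with an adjusted p under 0.05 were called. Each fraction was modelled with its 12 libraries together, the ratio with 24 libraries of total RNA and the high fraction, and the control fractions with 9 libraries. The SE was derived from the F statistic. A total of 15 comparisons were made, 1 of them added later. The code was tested on simulated counts. Alternatives were RLE scaling, library totals alone, DESeq2 1.42.0, no filter, the replicate letter as a block, just the compared groups, the low fraction in place of total RNA in the ratio, and leaving out each library. Start sites came from RefSeq (GRCh38.p14). Sequence-based features of proteins and codons were not analysed here.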

Additional observations from a re-analysis of the deposited data

Results flagged for a closer look

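The effect of UAU overexpression differed between the high fraction and total RNA for 14 members, by the edgeR test of that difference. That test called 7.32% of all genes, 3.57% higher and 3.75% lower, and 3 of the 14 calls held in every alternative run. Log2 values, high fraction minus total RNA, were below 0 in each case: EIF2S1 (-0.56), EIF3B (-0.62), EIF3M (-0.59), ABCE1 (-0.63), EIF3E (-0.72), EIF2B3 (-0.61), EIF3H (-0.53), EIF2B2 (-0.66), GSPT1 (-0.48), EIF2S3 (-0.55), EIF3I (-0.47), EEF1G (-0.41), EIF2B4 (-0.60) and EIF3L (-0.47).

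The effect of UAU overexpression in the high fraction also differed between cells with interference against the GAU tRNA and cells with interference against eGFP, in a test added after the values were seen. That test called 35.7% of all genes, 18.1% higher and 17.6% lower. The log2 difference, GAUi minus eGFP cells, was above 0 for 22 members: EIF2S1 (1.03), EIF3B (1.08), ABCE1 (0.96), EIF3E (1.28), EIF2S3 (1.03), EIF3D (0.88), EIF3I (0.77), EIF3H (0.84), EEF1A1 (0.79), EIF3L (0.87), GSPT1 (0.68), EIF3M (0.78), EIF2B3 (0.88), EIF2B2 (0.88), EEF1G (0.61), EIF4A1 (0.61), EIF4B (0.63), EIF2B4 (0.80), EEF2 (0.49), EIF2B5 (0.53), ETF1 (0.43) and EIF3F (0.58). It was below 0 for 4 members: EIF1 (-0.50), EIF4G2 (-0.36), EIF4A2 (-0.35) and EIF4E (-0.29). The call of EIF4E was lost in 11 of 17 alternatives, that of EIF4A2 in 6, that of EIF3F in 3 and that of EIF4G2 in 1. Both tests use the same UAU and control libraries of the high fraction, so a member named in both is not flagged by independent data.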

How the results depend on the processing

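Members called are counted here. No called member changed sign under any alternative run, and the UAU low fraction and the isoswitch ratio had 0 calls under all of theirs. In total RNA of UAU cells 3 were called by DESeq2, 2 with no low-count filter and 5 with just the compared groups in the model, where the main count was 1. For GAUi total RNA that smaller model gave 1 (main 7), for isoswitch total RNA 11 (main 2) and for the isoswitch low fraction 0 (main 1). In the GAUi low fraction (main 0) scaling by library totals alone gave 1, DESeq2 2, no filter 2 and the smaller model 1. Library totals alone gave 8 in the GAUi high fraction (main 4). For the GAUi high-to-total ratio (main 0) they gave 2, DESeq2 2 and no filter 3. The cause of these differences was not tested. Leaving out 1 library at a time gave 2 to 15 for GAUi total RNA, 0 in every case for isoswitch total RNA, 0 to 4 for the GAUi low fraction, 0 to 3 for the isoswitch low fraction, 1 to 3 for the GAUi high fraction, 2 to 5 for the isoswitch high fraction, 6 to 18 for the UAU ratio and 0 to 3 for the GAUi ratio. An arm of 2 libraries then borrows the spread of the other groups. Replicate letters showed no clear pairing of libraries, though deviations within groups of 3 libraries cannot exclude it. The median correlation of same-letter deviations was 0.0076 across lines in total RNA, -0.0831 in the low and 0.00448 in the high fraction. Within lines it was 0.0688 between total RNA and the high fraction (-0.0328 for different letters) and -0.311 between the control low and high fractions (0.182). With the replicate block the count was 1 for isoswitch total RNA, 0 for the isoswitch low fraction and 1 for the GAUi ratio, and other counts stayed within 1.5 times the main one. Library totals alone moved the median log2 fold change of all genes to -0.12 for the UAU ratio and to 0.17 for the difference of UAU effects, and by under 0.1 elsewhere. Members at low counts, EIF3C above all, are limited by depth.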
